A study of Mus musculus with 24 samples.

Results

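The 10 genes described here carry the growth hormone signal and its Igf1 output: the receptors Ghr and Prlr, the kinase Jak2, the transcription factors Stat5a and Stat5b, the inhibitor Socs2, the repressor Bcl6, the hormone Igf1 and its carriers Igfals and Igfbp1. They were chosen by name. Every 100 bp tile of the deposited methylation tables that lay between 5000 bp upstream of a transcription start and the end of the gene was taken, over all curated RefSeq transcripts on mm10. That gave 358 of the 1005908 tiles in the tables, of which 289 were present in the tables of all 3 tissues, out of 758685 such tiles in all. The tissues were liver, brain and heart of untreated inbred C57Bl/6J mice at 24 weeks of age, with 12 liver libraries (6 male and 6 female mice), 6 brain libraries (3 and 3) and 6 heart libraries (3 and 3), 1 per mouse and tissue. DNA came from the caudal part of the left liver lobe, from a coronal section of rostral brain and from the apex of the heart, so that each level is an average over the cells of a bulk tissue. Since table columns are numbered without reference to a mouse, a library is known by its tissue and number, and male and female mice were not compared here.

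Growth hormone binds Ghr on the cell surface, Jak2 attached to the receptor phosphorylates Stat5a and Stat5b, and these enter the nucleus and bind DNA. In liver the pathway drives transcription of Igf1 and Igfals, Socs2 is induced and dampens the receptor, and Bcl6 binds many of the same sites as a repressor. Prlr, the prolactin receptor, uses the same kinase and transcription factors. Cytosine methylation at CpGs was read by enhanced reduced representation bisulphite sequencing, which samples DNA near restriction sites, and the level of a tile is the share of reads methylated at its CpGs, given here in percent. Tiles within 1000 bp of a transcription start are called promoter, the rest of the 5000 bp upstream and the remainder of the gene body.

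For 8 genes the tile with the largest difference between tissues is shown, 5′ to 3′ on the plus strand of mm10 with the CpGs in capitals, since these letters are what the levels below refer to.
Igfbp1 chr11:7194901-7195000: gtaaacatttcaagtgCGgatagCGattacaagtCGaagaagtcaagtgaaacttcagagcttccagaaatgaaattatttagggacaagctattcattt
Igfals chr17:24877901-24878000: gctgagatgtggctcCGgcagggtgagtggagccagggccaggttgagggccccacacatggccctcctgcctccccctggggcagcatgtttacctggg
Stat5b chr11:100820001-100820100: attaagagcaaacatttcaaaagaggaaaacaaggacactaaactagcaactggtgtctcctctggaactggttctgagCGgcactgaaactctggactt
Bcl6 chr16:23972301-23972400: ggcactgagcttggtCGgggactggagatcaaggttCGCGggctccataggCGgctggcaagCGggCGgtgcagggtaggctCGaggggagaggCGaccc
Prlr chr15:10280201-10280300: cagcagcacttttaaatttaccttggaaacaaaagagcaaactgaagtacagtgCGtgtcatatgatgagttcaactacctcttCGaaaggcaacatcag
Ghr chr15:3347701-3347800: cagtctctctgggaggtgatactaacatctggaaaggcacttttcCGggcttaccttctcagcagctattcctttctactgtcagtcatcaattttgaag
Igf1 chr10:87876001-87876100: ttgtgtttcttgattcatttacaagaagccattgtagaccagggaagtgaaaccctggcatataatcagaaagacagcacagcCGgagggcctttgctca
Socs2 chr10:95420501-95420600: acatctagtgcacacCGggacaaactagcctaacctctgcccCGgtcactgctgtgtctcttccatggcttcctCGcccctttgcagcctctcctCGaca
The tile of Igfbp1 lies upstream of the gene, that of Socs2 upstream, and that of Igfals in the coding part of exon 1 of 1 transcript. The Bcl6 tile is in coding exon 5 and holds 8 CpGs. The tiles of Stat5b and Prlr are in intron 1, that of Ghr in intron 3, and that of Igf1 in intron 2 or 3 depending on the transcript. The numbers of CpGs are 3 for Igfbp1, 4 for Socs2, 2 for Prlr and 1 each for Igfals, Stat5b, Ghr and Igf1.

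The members' promoters differed widely in CpG content. The member entries ran from 2 CpGs in 1 of Prlr to 50 in 1 of Stat5b. 3 RefSeq promoters are shown (300 bases that end shortly after a start, written in the direction of transcription, build GRCm38.p6, CpGs in capitals). They hold 44 CpGs in Jak2, 8 in Igfbp1 and 4 in Igfals, all on the plus strand.
Jak2 chr19:29251553-29251852: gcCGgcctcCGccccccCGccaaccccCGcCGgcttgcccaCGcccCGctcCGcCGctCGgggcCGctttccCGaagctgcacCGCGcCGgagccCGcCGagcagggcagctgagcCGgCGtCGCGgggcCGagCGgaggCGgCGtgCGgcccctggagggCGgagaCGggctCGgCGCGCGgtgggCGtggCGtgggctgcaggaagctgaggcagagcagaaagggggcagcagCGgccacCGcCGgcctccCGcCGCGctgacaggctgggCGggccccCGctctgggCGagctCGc
Igfbp1 chr11:7197537-7197836: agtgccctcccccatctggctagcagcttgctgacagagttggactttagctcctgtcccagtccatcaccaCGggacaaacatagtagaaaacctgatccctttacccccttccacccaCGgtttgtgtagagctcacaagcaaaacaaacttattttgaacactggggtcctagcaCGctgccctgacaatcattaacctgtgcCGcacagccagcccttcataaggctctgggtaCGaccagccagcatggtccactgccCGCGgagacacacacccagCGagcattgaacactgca
Igfals chr17:24877594-24877893: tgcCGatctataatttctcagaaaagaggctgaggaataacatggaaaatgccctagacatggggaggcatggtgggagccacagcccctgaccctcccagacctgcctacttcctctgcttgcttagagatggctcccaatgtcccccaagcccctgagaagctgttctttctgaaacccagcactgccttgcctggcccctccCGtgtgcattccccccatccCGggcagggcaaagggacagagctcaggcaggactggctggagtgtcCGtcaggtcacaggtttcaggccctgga
The median over all 32851 RefSeq promoters was 7 CpGs. Entries were matched by symbol for 9 of the 10 members, not for Socs2.

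The tissue labels were checked against marker genes. Of 8 hepatocyte markers, all 3 promoters with tiles (Apob, F2 and Serpina1a) were lower in liver than in brain and in heart, with a median level of 21.0% in liver, 84.2% in brain and 78.1% in heart. Of 7 hepatocyte marker bodies, 3 were lower in liver than in brain (Alb, Serpina1a and Tat) and 2 lower than in heart (Alb and Tat). The Apoh body was methylated in each tissue, at 87.0% in liver, 92.6% in brain and 81.3% in heart. Of 7 cardiomyocyte marker bodies, 4 were lower in heart than in liver and 4 lower in heart than in brain, and of 5 promoters 2 and 3. Other cardiomyocyte markers were low in brain: the promoters of Myh7 (26.3% against 57.1% in liver) and Nppa (37.3% against 80.7% in liver and 73.3% in heart) and the body of Nppa (48.8% against 81.7% in liver). None of 8 promoters or 8 bodies of neuron and glia markers passed in any comparison, so at the threshold of 25 points this list does not mark the brain libraries. Brain was the lowest by less than that in the Mag promoter (64.3% against 88.8% in liver and 75.5% in heart) and the Mog body (72.9% against 91.7% and 86.0%). It was the highest in the bodies of Gfap (60.3%) and Grin1 (42.6%). The promoters of Snap25, Syn2, Neurod2 and Olig1 were at 8.9% or less in each tissue and could not have passed. 3 of 4 endothelial marker promoters (Pecam1, Tek and Tie1) were lower in heart than in liver and in brain, with list medians of 44.1%, 76.5% and 74.6%, and the part of such cells in the heart values below was not tested. None of the leukocyte markers (1 promoter, 5 bodies) passed. Brain library 1 stood apart: its mean correlation with the heart libraries was 0.92, against 0.884 to 0.896 for the other brain libraries, over all common tiles. Where they rest on brain, the total counts of called tiles, promoters and bodies are therefore also given without it. Median levels over all common tiles were 79.7% to 81.2% in the liver libraries, 76.9% to 81.5% in brain and 71.4% to 72.3% in heart, and the median tile differed by 0.28 points between liver and brain and by 3.5 points between liver and heart.

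Tiles of these genes were mostly either unmethylated or methylated, with more unmethylated ones in liver. Of the 289 common tiles, 120 (41.5%) had a mean level below 20% in liver, 98 (33.9%) in brain and 101 (34.9%) in heart, beside 18.3%, 17.1% and 19.2% of all common tiles. These sets differ in make-up, since 88 of the 289 member tiles were promoter tiles, beside 114001 of all 758685. The part of this in the higher member shares was not tested. The median member tile was at 33.7% in liver, 70.8% in brain and 57.9% in heart. All 58 promoter tiles with at least 5 CpGs were below 20% in each of the 3 tissues. Of the 22 promoter tiles with 2 to 4 CpGs, 19 were below 20% in liver and 17 each in brain and heart. Outside promoters, 33 tiles had at least 5 CpGs, and 10 of them were below 20% in liver and 7 each in brain and heart.

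Below, ± after a level is the SD over libraries and ± after a difference is its SE. A tile was called different between tissues where limma gave an adjusted p up to 0.01 and the means lay 25 points apart or more, tested over all 758685 common tiles with all 24 libraries in the fit. Between liver and brain, 47 of the 289 member tiles were lower in liver (16.3%, beside a background of 4.76% of all tiles) and 5 were higher (1.73%, background 5.04%), 52 in all (background 9.8%). Between liver and heart, 41 were lower in liver (14.2%, background 2.87%) and 12 were higher (4.15%, background 7.94%), 53 in all (background 10.8%). Between brain and heart, 2 were lower in brain (0.692%, background 1.75%) and 11 were higher (3.81%, background 7.71%), 13 in all (background 9.46%). The median member tile differed by -0.08 points between liver and brain, by 0.17 points between liver and heart and by 0.57 points between brain and heart, so that most tiles lay near no difference. Without brain library 1, 51 member tiles passed between liver and brain instead of 52, and 16 between brain and heart instead of 13. The counts of promoters and bodies given below did not change. Of the upstream regions, that of Stat5a no longer passed between liver and brain. In bulk tissue, a lower level in all cells and a larger share of cells with an unmethylated tile cannot be told apart.

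**Figure D1:**
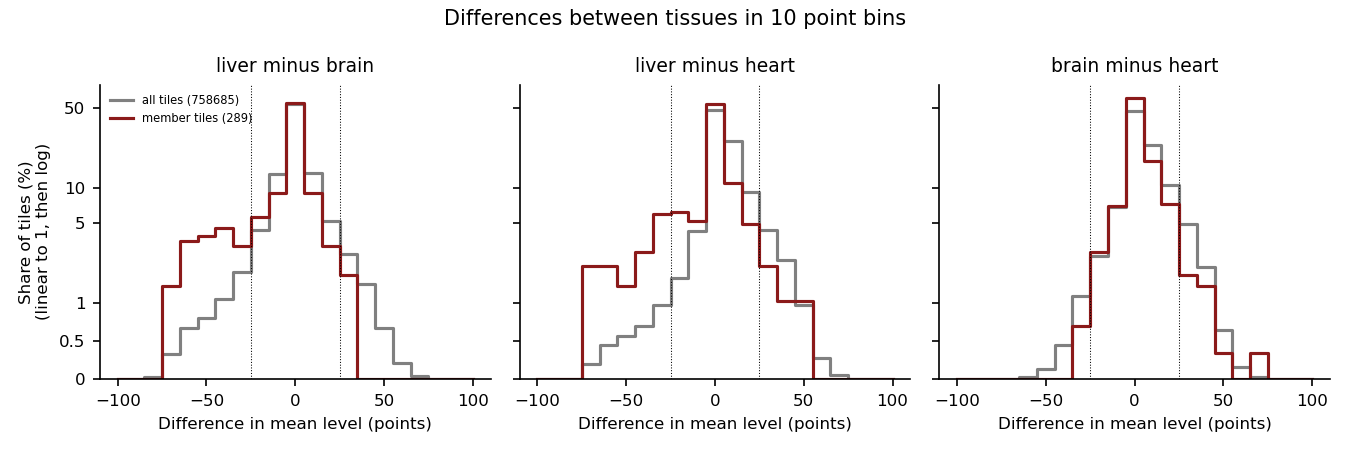
Share of tiles (y axis, percent, linear to 1 and logarithmic above) by the difference in mean level between 2 tissues (x axis, points, bins of 10) for the 289 member tiles in red and all 758685 common tiles in grey, with dotted lines at 25 points. Left of -25 points in the liver panels, the member share is above that of all tiles in most bins: 47 member tiles were lower in liver than in brain and 41 lower in liver than in heart.

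The tiles lower in liver than in brain came from 9 of the 10 genes, Jak2 being the exception. Stat5b held 12 of its 49 common tiles, Igfbp1 7 of 11, Prlr 7 of 28, Igfals 6 of 15, Ghr 6 of 46, Bcl6 6 of 45, and Socs2, Stat5a and Igf1 1 each of 31, 26 and 19. By place, 36 of 187 body tiles (19.3%, background 5.78% of the body tiles of all genes), 6 of 14 upstream tiles (42.9%, background 5.53%) and 5 of 88 promoter tiles (5.68%, background 2.13%) were lower in liver than in brain. Of the 47 tiles, 29 (61.7%) had another such tile within 500 bp, a share near the 55.6% of all 36099 tiles lower in liver than in brain. They formed 10 stretches in 6 genes, some with other tiles in between that did not pass.

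Means over the tiles of a region were tested in the same way over all genes. Between liver and brain, 1 of 9 member promoters with tiles passed (Igfals, lower in liver; background 2.08% lower, 1.33% higher and 3.41% in all of 18364 promoters), 4 of 6 upstream regions (Bcl6, Igfals and Igfbp1 lower and Stat5a higher in liver; background 4.6% lower, 2.42% higher and 7.02% in all of 13580) and 1 of 10 bodies (Igfbp1, lower; background 2.14% lower, 1.31% higher and 3.45% in all of 18295). Between liver and heart, 1 promoter (Igfbp1; background 1.37% lower, 2.11% higher and 3.49% in all), 2 upstream regions (Igfals and Igfbp1; background 2.84% lower, 5.1% higher and 7.94% in all) and 1 body (Igfbp1; background 1.36% lower, 2.38% higher and 3.73% in all) passed, all lower in liver. Between brain and heart, the upstream region of Bcl6 was higher in brain (background 0.545% lower, 4.31% higher and 4.85% in all), and no promoter or body of a member passed (background 0.381% lower, 1.99% higher and 2.37% in all for promoters and 0.317%, 1.69% and 2.01% for bodies). The median member promoter differed by -4.19 points between liver and brain, beside 0.36 points over all genes, and the median member body by -7.89 points, beside 1.16. Between liver and heart these medians were -0.62 points for promoters, beside 0.52 over all genes, and -3.3 points for bodies, beside 5.54.

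**Figure D2:**
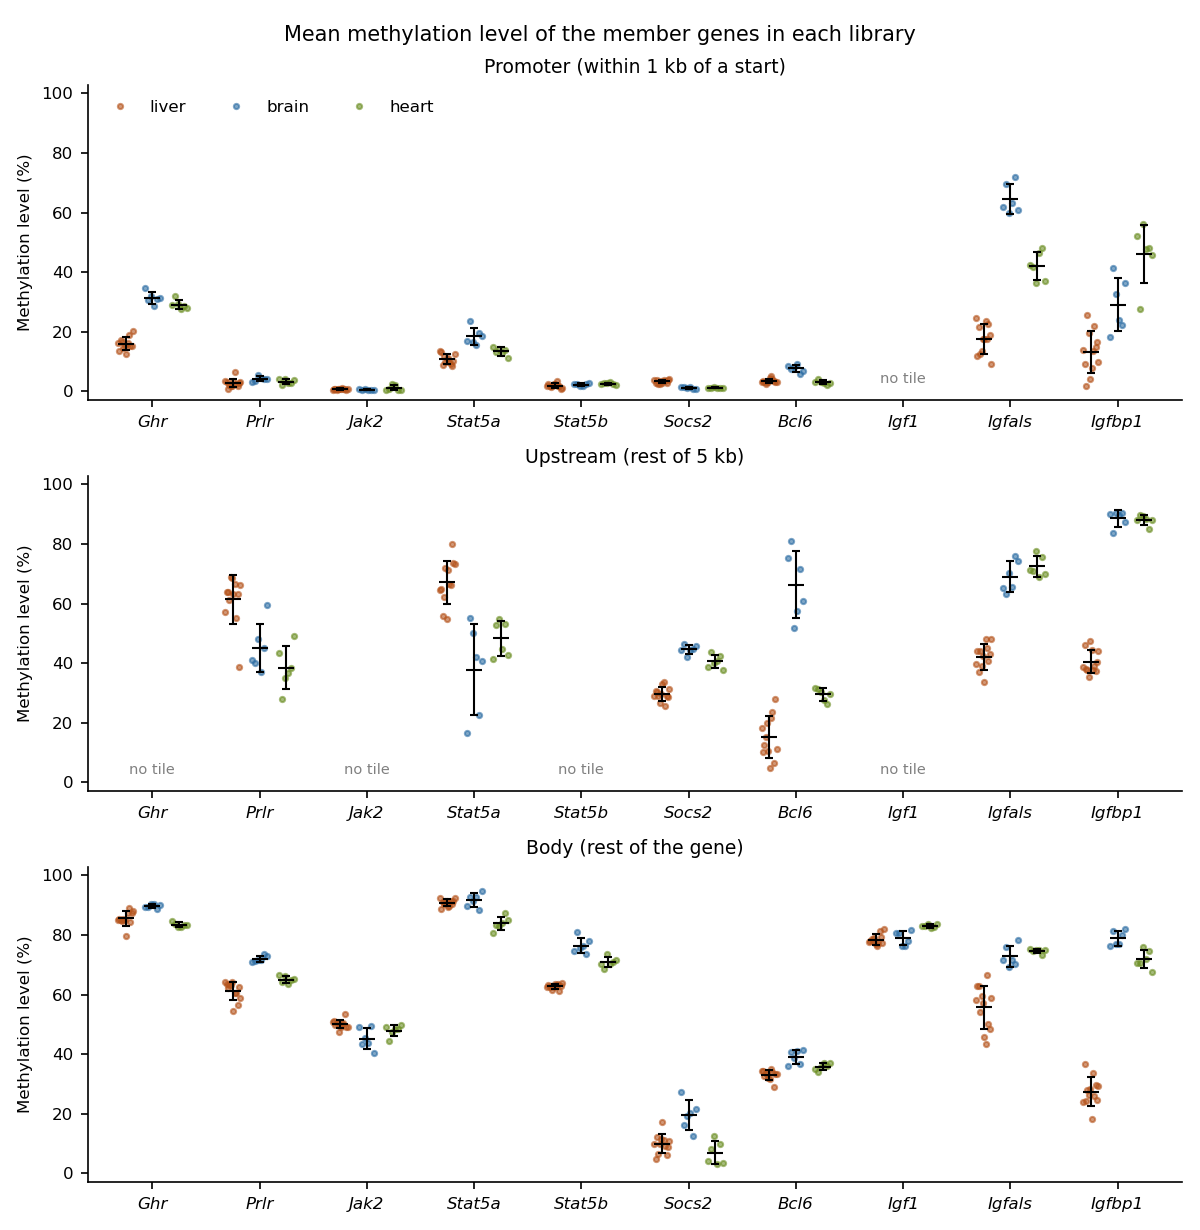
Mean methylation level (percent) of the promoter, upstream and body tiles of each gene in every library, with the mean and SD as black bars, for liver (12 libraries), brain (6) and heart (6). All 12 liver libraries lie below all brain and heart libraries in the upstream region and body of Igfbp1, while the promoters of Prlr, Jak2, Stat5b, Socs2 and Bcl6 lie below 10% in every library.

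The receptor of the hormone, Ghr, spans 265598 bp on the minus strand of chromosome 15 and had 46 common tiles, 8 of them in promoters. The promoter level was lowest at 12.5%, median 15.8% and highest at 20.3% in liver, 28.6%, 31.3% and 34.7% in brain, and 27.7%, 28.9% and 32.1% in heart. The liver libraries all lay below those of the other tissues. The difference from brain was -15.4 ± 1.0 points (SE, adjusted p = 1.2e-12) and that from heart -13.1 ± 1.0 (adjusted p = 3.5e-11), both under the 25 points asked of a call. The 3 promoter tiles lower in liver than in brain lay 599 to 799 bp before the first start (chr15:3583901-3584200). Liver averaged 40.5% over them, beside 79.2% for brain and 75.9% for heart. A repeat covered 100 bases each of the tiles at 599 and 699 bp, and 31 bases of the tile at 799 bp. The remaining common promoter tiles had means of 7.85% or less in every tissue, so the promoter difference rested mostly on these 3 tiles. The 7.85% was the brain level of the tile 209 bp before a later start, where liver had 1.21% and heart 2.22%.

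The Ghr body was methylated in all tissues, at 85.6% ± 2.4 (SD, n = 12) in liver, 89.8% ± 0.66 (n = 6) in brain and 83.4% ± 0.83 (n = 6) in heart, with 3 tiles lower in liver than in brain. A tile in intron 1 (chr15:3506201-3506300) was at 39.3% ± 9.1 in liver, 93.4% ± 2.9 in brain and 91.0% ± 3.3 in heart, and a tile in coding exon 7 (chr15:3333401-3333500) at 29.1% ± 7.9, 81.7% ± 5.3 and 51.4% ± 10.4. The intron 3 tile printed above went the other way, with heart the lowest: its levels were 35.7% at the lowest, 72.0% in the middle and 93.3% at the highest in liver, 79.7%, 86.6% and 89.7% in brain and 8.5%, 19.95% and 27.3% in heart. All heart libraries lay below all others there, and the difference of brain from heart was 66.1 ± 6.1 points (adjusted p = 3.2e-09). A tile close by in coding exon 4 (chr15:3347501-3347600) was at 83.9% in liver, 86.2% in brain and 36.2% in heart. A repeat covered at least 50 bases in 25 of the 54 Ghr tiles of any table.

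Prlr, the receptor of prolactin, spans 171943 bp on chromosome 15 and had 28 common tiles. Its promoter was sampled only at the first of its 3 starts, and no tile lay within 1000 bp of the later ones. There it was unmethylated, with a highest library of 6.4% in liver, 5.6% in brain and 4.3% in heart, and the tissues overlapped. The tile closest to a start, 712 bp after it, was at 1.91% in liver, 1.75% in brain and 1.22% in heart. The body was at 61.2% ± 3.1 in liver (lowest 54.6%, highest 64.2%), 72.0% ± 1.1 in brain (71.1% to 73.7%) and 65.1% ± 1.2 in heart (63.4% to 66.5%). Liver and brain libraries did not overlap, and the difference of -10.8 ± 1.2 points (adjusted p = 1.3e-08) was under 25 points. 7 of the 23 body tiles, all in intron 1, were lower in liver than in brain. 3 of them begin 1412 bp after the first start (chr15:10178601-10179000), where means of 22.5% in liver, 61.4% in brain and 54.8% in heart were measured. The tile printed above, deep in the same intron, had 15.9%, 27.4% and 37.5% as its lowest, median and highest liver level, 85.3%, 96.7% and 97.4% in brain and 78.2%, 88.5% and 95% in heart, with a difference from brain of -66.9 ± 3.4 points (adjusted p = 9e-15). The single upstream tile of Prlr went the other way, at 61.5% ± 8.2 in liver, 45.1% ± 8.1 in brain and 38.6% ± 7.3 in heart, with overlapping libraries. Liver was above heart by 22.9 ± 3.8 points (adjusted p = 9.1e-06), under 25 points, and by 25.1 points, past the threshold, without heart library 6.

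Jak2, the kinase bound to both receptors, showed few tissue differences. Its promoter, 11 tiles of a CpG-rich region, was at 0.80% ± 0.25 in liver, 0.58% ± 0.16 in brain and 1.27% ± 0.92 in heart. The tile closest to the start, 47 bp after it, was at 0.533% in liver, 0.40% in brain and 0.467% in heart. The body was at 50.2% ± 1.4, 45.2% ± 3.5 and 47.9% ± 1.9. Of its 19 common tiles 1 passed between liver and brain, in intron 2 or 3 (chr19:29267901-29268000), where liver was higher than brain (93.8% against 66.3%, 27.5 ± 3.3 points, adjusted p = 1.3e-07). Brain library 1, at 87.0%, was the highest of the brain libraries there, and the others lay between 54.8% and 74.2%.

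The closely related Stat5a and Stat5b lie on chromosome 11 within a short distance, on opposite strands, and their tiles differed in pattern. The promoter of Stat5b, the main growth hormone responsive form in liver, was sampled only at the first of its 3 starts. It was unmethylated there, at 2.0% ± 0.69 in liver, 2.32% ± 0.43 in brain and 2.62% ± 0.35 in heart. No tile lay within 1000 bp of the later starts. In Stat5b the tile closest to a start, 30 bp after it, was at 0.90%, 0.90% and 1.2%. Its body was lower in liver (61.3% to 63.8%, median 62.8%) than in brain (73.6% to 81.0%, median 76.0%) and heart (68.5% to 73.6%, median 70.6%) without overlap, but by less than 25 points: -13.7 ± 0.85 (adjusted p = 6.1e-13) and -8.06 ± 0.85 (adjusted p = 5.3e-09). Of 38 body tiles, 12 were lower in liver than in brain and 12 lower than in heart, while 1 and 4 were higher.

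The 12 tiles lower in liver than in brain all lay in intron 1 of the longest transcript. 5 adjoining tiles with 19 CpGs (chr11:100819701-100820200) had means of 17.5% to 27.2% in liver, 72.8% to 85.0% in brain and 41.5% to 91.8% in heart. These tiles lie 2419 to 2819 bp after a later start of the gene. A second stretch of 3 tiles (chr11:100814501-100814900), before another later start (-1481 to -1181 bp), averaged 14.0% in liver, 67.9% in brain and 48.7% in heart. In its middle tile, with 7 CpGs, the lowest, median and highest levels were 8.0%, 11.6% and 20.7% in liver, 70.1%, 75.0% and 81.1% in brain and 45.3%, 56.4% and 62.0% in heart. The printed tile of the longer stretch was at 23.6% ± 4.8 in liver, 79.1% ± 5.5 in brain and 91.8% ± 4.2 in heart, a difference from heart of -68.2 ± 2.8 points (adjusted p = 3.9e-16). Heart was the lowest tissue elsewhere in the same gene: a tile in intron 2 (chr11:100806501-100806600) was at 69.7% ± 4.9 in liver, 49.1% ± 6.7 in brain and 22.8% ± 4.4 in heart, and a tile in intron 1 (chr11:100844601-100844700) at 76.6% ± 6.6, 72.0% ± 18.9 and 33.3% ± 4.9.

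Stat5a had 26 common tiles, of which 1 was lower and 1 higher in liver than in brain. The promoter was at 8.6%, 10.6% and 13.6% as the lowest, median and highest in liver, 15.5%, 17.9% and 23.6% in brain and 11.2%, 13.7% and 15% in heart. Liver and brain did not overlap, and their difference was -7.61 ± 0.97 points (adjusted p = 2.5e-07). In the tile at the first start, which holds 1 CpG, liver had 10.3% ± 6.9, brain 34.4% ± 12.3 and heart 31.1% ± 8.3. The tile in coding exon 14, or 13 in a shorter transcript (chr11:100879701-100879800), was lower in liver at 51.1% ± 7.2 than in brain at 85.2% ± 5.0 and heart at 79.9% ± 5.3. The single upstream tile (chr11:100858001-100858100, 1 CpG) was higher in liver at 67.1% ± 7.4 than in brain at 37.9% ± 15.2, with the lowest liver library at 55% and the highest brain library at 55.2%, by 29.2 ± 4.5 points (adjusted p = 5.1e-06). Without brain library 1 the difference of this tile was just under 25 points and no longer reached the threshold, and with every tile of each table the upstream regions differed by 0.66 points (adjusted p = 0.88). In that last setting the brain mean takes in a further tile that has no liver values (chr11:100857901-100858000), so unlike tiles are compared.

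Among the factors that oppose the signal, Socs2 had 25 promoter tiles, more than any other member. Its promoter was nearly unmethylated, with a small shift in liver: 2.4% to 4.1% (median 3.6%) in liver, 0.9% to 1.4% (median 1.3%) in brain and 1.1% to 1.5% (median 1.2%) in heart. All liver libraries lay above all brain and heart libraries, by 2.15 ± 0.23 points (adjusted p = 1.4e-08) and 2.14 ± 0.23 points (adjusted p = 1.7e-08), far under 25 points. In the tile 6 bp after a start, liver had 2.49%, brain 0.417% and heart 0.50%. Of the 4 upstream tiles, the 2 nearest to the start were below 5% in each tissue and the farthest was at 93.6% in liver, 89.5% in brain and 80.8% in heart. The tile between them, 3694 bp upstream, had 11.1%, 21.4% and 30.5% as lowest, median and highest in liver, 79.6%, 80.7% and 86.6% in brain and 72.5%, 80.7% and 84.1% in heart. Liver lay below the others by -61.4 ± 3.0 points against brain (adjusted p = 3.3e-15) and -58.0 ± 3.0 points against heart (adjusted p = 1.5e-14). This tile and others, 10 of the 37 Socs2 tiles in all, also overlapped the annotated transcript of a neighbouring gene, 5730420D15Rik.

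Bcl6, a zinc finger repressor known from B cells and from the liver response to growth hormone, is transcribed from the minus strand of chromosome 16. Its promoter was at 3.52% ± 0.66 in liver, 7.71% ± 1.22 in brain and 3.12% ± 0.64 in heart, and the tile at the first start, which holds 16 CpGs, at 0.992%, 0.70% and 0.75%. All brain libraries lay above all others in the promoter mean. The differences were -4.19 ± 0.41 points of liver from brain (adjusted p = 2.7e-09) and 4.59 ± 0.47 points of brain from heart (adjusted p = 1.7e-08). They rested on the tiles at the second start, since the common tiles at the first start were at 2.7% or less in each tissue. The tile 432 bp after the second start was at 17.7% in liver, 42.3% in brain and 22.4% in heart. The single upstream tile (chr16:23993801-23993900, 2 CpGs), close to 5000 bp before the start, was at 4.8%, 13.8% and 27.9% as lowest, median and highest in liver, 51.7%, 66.3% and 80.9% in brain and 26.2%, 30.1% and 31.7% in heart. Brain stood above both, by -51.2 ± 3.6 points of liver from brain (adjusted p = 4.9e-12) and 36.9 ± 4.1 points of brain from heart (adjusted p = 5.5e-08). With every tile of each table these were -24.6 and 13.03 points and did not reach the threshold. In that setting brain and heart take in upstream tiles that have no liver values (chr16:23990601-23990700 and chr16:23990801-23990900). The value of liver from brain then compares unlike tiles.

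Of the 5 Bcl6 body tiles lower in liver than in brain, 3 lay in coding exon 5 and 2 in intron 1. In exon 5, 2 adjoining tiles (chr16:23972201-23972400, 10 CpGs) averaged 26.2% in liver, 84.4% in brain and 91.3% in heart. The tile with 8 CpGs ranged from 15.2% to 51.1% (median 25.1%) over the liver libraries, where library 8 was the highest and the next was at 33.5%, from 82.7% to 92.6% in brain and from 90.6% to 93.8% in heart. Liver was below heart by -66.0 ± 3.6 points (adjusted p = 5.3e-14) and below brain by -62.3 ± 3.6 points (adjusted p = 1.1e-13). Further tiles went the other way: at the 3′ end of the gene (chr16:23965101-23965200, the noncoding part of exon 10), liver was at 93.3%, brain at 70.8% and heart at 58.3%, a difference of liver from heart of 35.1 points that passed and one from brain of 22.5 points that did not.

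**Figure D3:**
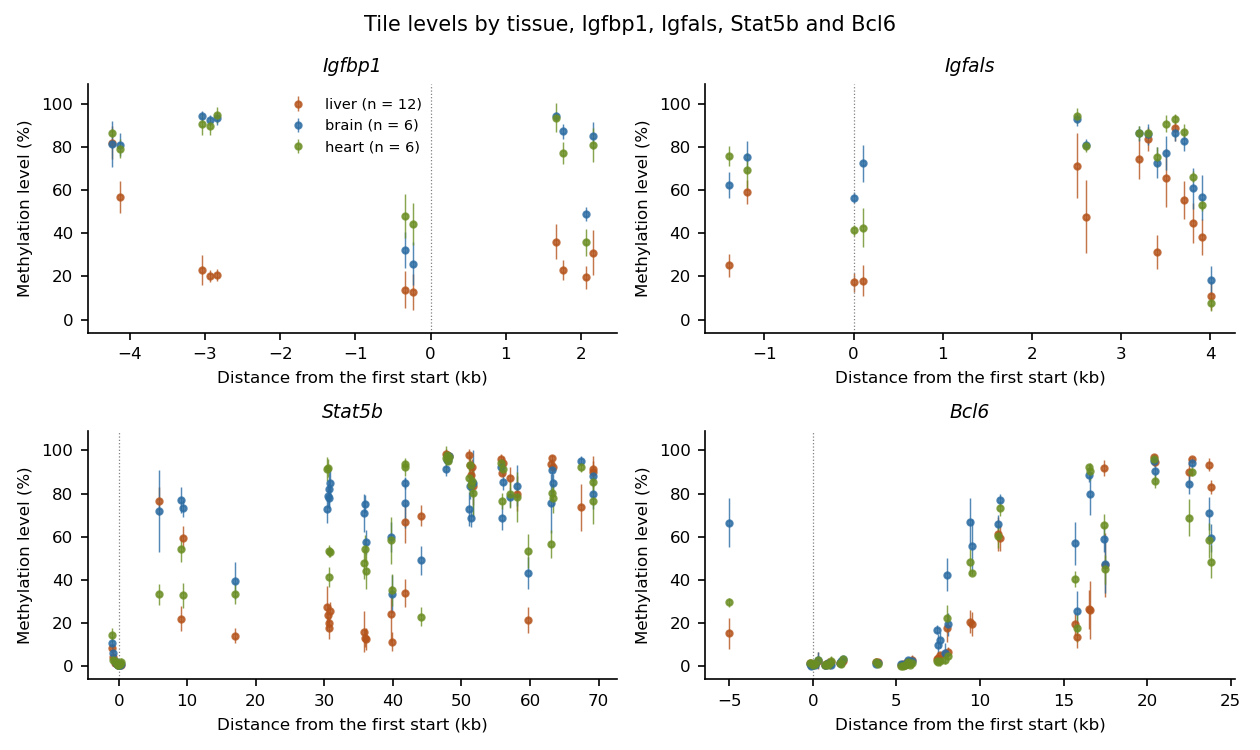
Mean methylation level of each common tile (percent, bars are SD over libraries) against the distance of its centre from the first transcription start (kb, dotted line at the start) in Igfbp1, Igfals, Stat5b and Bcl6, for liver (n = 12), brain (n = 6) and heart (n = 6). Runs of liver points lie below brain and heart 3037 to 2837 bp upstream and 1663 to 2163 bp inside Igfbp1. In the latter run, the tile at 2063 bp is at 19.5% in liver and 35.9% in heart with overlapping libraries. Further runs are the 2 stretches between 30430 and 36030 bp into Stat5b. The CpG-rich first starts of Stat5b and Bcl6 lie near 0 in each tissue.

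Igf1, the growth factor that liver releases into blood, had 19 common tiles, all in the body and none of them within 1000 bp of a start. Its body was at 78.5% ± 1.7 in liver, 79.0% ± 2.4 in brain and 83.1% ± 0.58 in heart, and the difference of -0.47 ± 0.86 points between liver and brain had an adjusted p of 0.65. Heart lay above both, by -4.58 ± 0.86 points of liver from heart (adjusted p = 3.3e-05), under 25 points. The common tiles ran from 23.0% to 96.9% in liver. The lowest of them in liver was the tile printed above, at 11.8%, 22.5% and 41.5% in liver, 59.5%, 68.2% and 76.2% in brain and 74.2%, 90.0% and 96.8% in heart as lowest, median and highest, with differences of -44.6 ± 3.8 points from brain (adjusted p = 1.9e-10) and -65.3 ± 3.8 points from heart (adjusted p = 1.5e-13). It holds a single CpG. Near the 3′ end, in the last intron of each transcript, brain was the lowest tissue in a tile (chr10:87923001-87923100) at 32.9% ± 7.5, with liver at 61.2% ± 7.3 and heart at 66.5% ± 4.4. The tile beside it (chr10:87922901-87923000) was at 58.7% in liver, 58.3% in brain and 85.4% in heart. The tile closest to a start, 4039 bp after it, was at 50.8% ± 11.8 in liver, 71.8% ± 11.1 in brain and 66.7% ± 8.8 in heart.

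Igfals encodes the acid labile subunit, which liver secretes and which keeps Igf1 in a large complex in blood. Its promoter, 2 tiles with 3 CpGs, was the only member promoter that differed between liver and brain at the threshold. The lowest, median and highest levels were 9.3%, 17.7% and 24.7% in liver, 59.9%, 62.5% and 72.0% in brain and 36.5%, 42.1% and 48.2% in heart. The 3 tissues did not overlap, with liver lowest, heart between and brain highest, and liver differed from brain by -46.9 ± 2.4 points (adjusted p = 6.4e-15) and from heart by -24.4 ± 2.4 points (adjusted p = 2.7e-09), just under 25 points. The latter was -25.1 points without liver library 1, -25.6 without heart library 3 and -25.5 without heart library 6, past the threshold each time. The tile closest to a start, 6 bp after it, was at 17.3% ± 4.5 in liver, 56.6% ± 2.6 in brain and 41.5% ± 2.5 in heart. The upstream tiles were at 42.2% ± 4.3 in liver, 69.0% ± 5.3 in brain and 72.5% ± 3.4 in heart, lower in liver by -26.9 ± 2.2 points (adjusted p = 8.4e-11) and -30.3 ± 2.2 points (adjusted p = 8e-12). The body tiles, all in exon 2, ranged from 43.6% to 66.8% over the liver libraries, from 69.3% to 78.4% in brain and from 73.2% to 75.3% in heart.

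Igfbp1, a binding protein of Igf1 made by hepatocytes and held down by insulin, was lower in liver than in heart in all 3 regions. 3 tiles upstream (chr11:7194701-7195000, 7 CpGs) averaged 21.3% in liver, 93.4% in brain and 91.7% in heart. In the tile printed above, the liver libraries lay between 16.1% and 25.1% (median 20.4%), the brain libraries between 90.4% and 97.7% (median 92.5%) and the heart libraries between 89.9% and 100% (median 93.8%). The differences of -72.7 ± 2.3 points from brain (adjusted p = 3e-18) and -74.2 ± 2.3 points from heart (adjusted p = 1.1e-17) were the largest of any member tile in these comparisons. Over all 5 upstream tiles liver was at 40.5% ± 3.9, brain at 88.6% ± 2.7 and heart at 88.2% ± 1.7, with differences of -48.1 ± 1.7 (adjusted p = 8.8e-18) and -47.7 ± 1.7 points (adjusted p = 1.6e-17).

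The body of Igfbp1 was sampled by 4 tiles, 2 in intron 1 and 2 in coding exon 2 (chr11:7199401-7200000). Its level was 18.3%, 27.2% and 36.6% as lowest, median and highest in liver, 76.4%, 78.5% and 82.1% in brain and 67.7%, 71.2% and 76.0% in heart. Every liver library lay below every other library, and the differences were -51.5 ± 1.9 points from brain (adjusted p = 3.5e-17) and -44.5 ± 1.9 points from heart (adjusted p = 5e-16). The promoter of Igfbp1 was sampled by 2 tiles with 3 CpGs, 237 and 337 bp before the start, and its libraries were widely spread. It ranged from 1.8% to 25.8% (median 13.8%) in liver, from 18.4% to 41.4% (median 28.3%) in brain and from 27.8% to 56.1% (median 47.9%) in heart. Liver and brain overlapped, with a difference of -15.9 ± 3.9 points (adjusted p = 0.0012), whereas liver lay below heart by -32.9 ± 3.9 points (adjusted p = 7.4e-08). The nearer tile was at 12.7% ± 8.4 in liver, 26% ± 10.2 in brain and 44.3% ± 9.5 in heart.

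**Figure D4:**
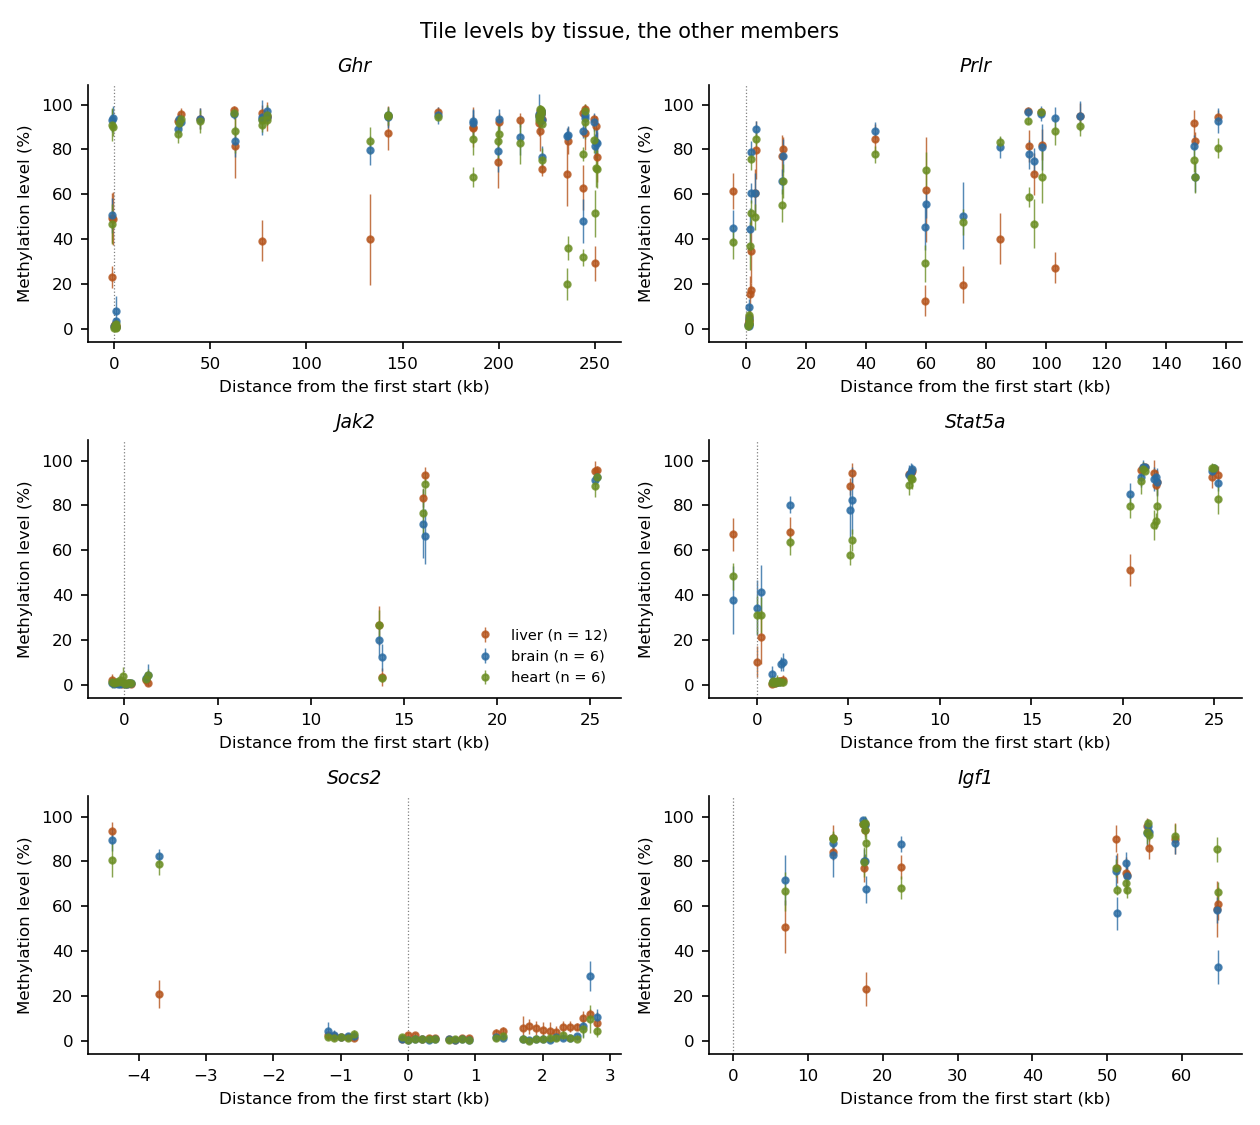
Mean methylation level of each common tile (percent, bars are SD over libraries) against the distance of its centre from the first transcription start (kb, dotted line at the start) in Ghr, Prlr, Jak2, Stat5a, Socs2 and Igf1, for liver (n = 12), brain (n = 6) and heart (n = 6). Most points of the 3 tissues coincide. Runs of 3 liver points lie below the others before the first start of Ghr and after that of Prlr. Single liver tiles also fall below, such as those at 20.9% in Socs2 3694 bp upstream and at 23.0% in Igf1 17785 bp after the start.

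Stat5 proteins bind a palindromic site of the letters TTCNNNGAA, which reads the same on both strands. These letters were in 15 of the 289 common member tiles (5.19%), beside 2.9% of all 758685 common tiles, and in 2 of the 47 tiles lower in liver than in brain. Both of these were body tiles: the Prlr tile 1512 bp after the first start (chr15:10178701-10178800), at 17.4% ± 3.1 in liver, 60.7% ± 4.5 in brain and 51.8% ± 5.8 in heart, and the Igfbp1 tile 1663 bp after the start (chr11:7199401-7199500), at 36.1% ± 8.2, 94.4% ± 2.0 and 93.6% ± 6.7. 5 tiles of Bcl6 held the letters, each below 20% in all 3 tissues. In RefSeq promoters, 8.3% of 32851 held them, and among the members they were in 2 of 2 entries of Bcl6, 2 of 3 of Igfals and 1 of 3 of Prlr. A match of letters is a description of the sequence and was not tested as a binding site.

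The spread over the liver libraries was read in the 316 member tiles of the liver table, each measured in all 12 libraries. In 33 tiles (10.4%, beside 8.1% of all 819713 liver tiles) the SD was at least 10 points, and in 5 it was at least 15 points (background 0.763%). The median SD was 3.58 points in the member tiles and 4.6 points in all liver tiles. Spread followed level: none of 123 member tiles with a liver mean below 20% reached 10 points, nor did more than 3 of 111 above 80%, while 30 of the 82 in between did (36.6%, beside 22.9% of all liver tiles at these levels). Prlr held 12 such tiles of 37, all in its body, Ghr 8 of 49, and Igfals, Igf1 and Stat5b 3 each, while Jak2 and Socs2 held none. The depth behind a tile is unknown beyond the filter of more than 10 reads, and at 10 reads and a level of 50% counting alone gives an SD of 15.8 points, so its part in these values was not tested.

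The widest tile was in intron 1 of Prlr, 59912 bp after the first start (chr15:10237101-10237200, 1 CpG), with an SD of 23.3 points. Libraries 7, 10 and 12 were at 29.6%, 20.8% and 25.5%, and the other 9 lay between 64.8% and 90.6%, a gap of 35.2 points with no library inside. Brain ranged from 49.0% to 63.2% and heart from 61.5% to 85.0% in the same tile. A second Prlr tile 80112 bp after the start (chr15:10257301-10257400, 2 CpGs) had an SD of 21.5 points, running from 25% in library 7 to 90.0% in library 6 with no gap over 12.6 points.

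A Ghr tile in intron 2 (chr15:3450201-3450300, 1 CpG) had an SD of 20.4 points, from 4.8% in library 7 to 77.4% in library 9, with brain between 68.2% and 84.6% and heart between 75.8% and 91.3%. An Igfals tile in coding exon 2 (chr17:24880401-24880500, 3 CpGs) had an SD of 16.9 points: library 9 was at 85.7%, within the range of brain and heart, and the other 11 lay between 27.0% and 59.3%. The fifth, in Prlr (chr15:10248701-10248800, 1 CpG), had an SD of 15.5 points that rested on library 7 at 37.5%, with the others between 72.5% and 100%, and was 8.6 points without it. Library 7 was the lowest of the 12 in 12 of the 33 tiles with a high SD, beside 9.92% of all such liver tiles, and without it 22 member tiles reached 10 points instead of 33.

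**Figure D5:**
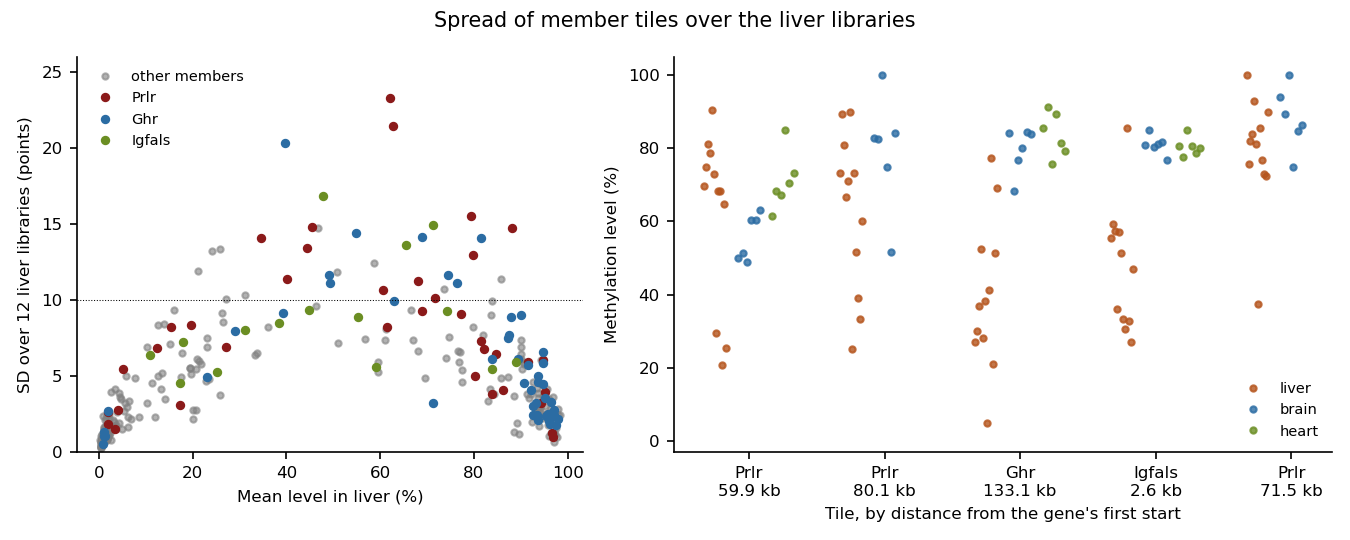
Left, SD over the 12 liver libraries (points) against the mean liver level (percent) of the 316 member tiles of the liver table, with a dotted line at 10 points and Prlr, Ghr and Igfals coloured. Right, the level in every library (percent) of the 5 tiles with the largest liver SD, named by gene and distance from the first start, where heart has no values in 2 Prlr tiles; in the leftmost tile 3 liver libraries lie between 20.8% and 29.6% and the other 9 at 64.8% or above.

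Other genes of the pathway were read as 62 further genes in 6 lists, of which 58 had promoter tiles and 57 body tiles. Between liver and brain, 2 of the 58 promoters were lower in liver (background 2.08%) and 2 higher (background 1.33%). Of the 57 bodies 1 was lower in liver than in brain (background 2.14%). Between liver and heart, 2 promoters were lower in liver (background 1.37%), 1 body was lower (background 1.36%) and 1 higher (background 2.38%). The counts of single lists below are parts of these. The median difference of the pathway promoters was 0.18 points between liver and brain. The median promoter was at 3.5% in liver, 2.5% in brain and 2.5% in heart. Among the transcription factors, the promoter of Hnf4a, a nuclear receptor that defines hepatocytes, was lower in liver, at 22.8% against 88.7% in brain and 68.3% in heart. Among the ligands, 1 of 5 passed, the promoter of Ghrh, which encodes the hypothalamic releasing hormone, at 77.9% in liver and 44.7% in brain. Among the receptors, 1 of 6 passed, the promoter of the imprinted Igf2r, at 38.0% in liver, 6.1% in brain and 32.0% in heart, so that brain was the lowest.

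Of the 9 binding proteins and proteases with body tiles, Igfbp4, a binding protein of Igf1 made in liver, passed at 54.8% in liver, 92.3% in brain and 84.2% in heart. Of 11 inhibitors, the body of Cish, a feedback inhibitor induced by Stat5, was lowest in heart, at 39.7% against 66.6% in liver and 81.3% in brain. None of the 17 adaptor and signalling genes with tiles passed in any of these comparisons by limma, and their median promoter was at 2.0% in liver, 1.4% in brain and 1.5% in heart.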

How the data were processed

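Enhanced reduced representation bisulphite sequencing libraries were prepared and sequenced by a service from genomic DNA of 12 livers, 6 brains and 6 hearts. Per the labels the submitters' processing used Bismark and methylKit on mm10. The paper instead states that the service mapped these libraries by proprietary methods, so the aligner is not certain. The authors combined CpG calls in 100 bp tiles, required a coverage above 10 reads in each replicate, dropped the tiles of highest coverage, and deposited 1 table per tissue of methylation levels as a fraction from 0 to 1, without read counts. The depth of each library and tile is thus unknown and no counting interval can be given.

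Fractions were multiplied by 100. Tables were filtered separately by the authors, so tissues were compared in the 758685 tiles present in all 3. Transcripts were the curated RefSeq transcripts of GRCm38.p6 on autosomes. Positions were checked against the sequence: at least 99.8% of the tiles in each table held a CpG, and 55.0% to 55.2% did after a move of 100000 bp. A tile belonged to a region if it touched it. Differences were tested with limma 3.58.1 in R 4.3.3, with a trend of the variance, on levels in percent with all 24 libraries and tissue as the only term, and p-values were adjusted by Benjamini and Hochberg over all tiles or all genes. Groups were the tissues of the labels. Columns could not be matched to mice, which leaves gender and pairing out, and the labels give some mouse numbers opposite genders in liver and in the other tissues. Each library comes from a separate mouse within a tissue, and some mice gave several tissues, so that the tissues are not independent samples. The functions were tested on simulated data.

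The members and gene lists were chosen with earlier results of these data known. Named were every member, its tile with the largest called tissue difference, its tile closest to a start, the 5 tiles with the largest liver SD, and of the other pathway genes those that passed, except 1 that enters the counts and is not reported here. Further tiles in the text belong to stretches or stand apart and were chosen after their values were seen. Alternatives were a difference of 10 points, a logit scale, no variance trend, fits of 2 tissues, tiles of at least 2 CpGs, other promoter windows, tiles placed by midpoint, every tile of each table, an SD of 15 points and leaving out each library, and, chosen after seeing the data, centring on the median tile and predicted transcripts.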

Additional observations from a re-analysis of the deposited data

Results flagged for a closer look

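Over the region means of the members and the tile with the largest difference in each, 70 groups of 6 brain or heart libraries were examined. 5 held a library far from the others, and chance gives about 1 in 20. All 5 were in heart. Heart library 2 was the lowest for the Igfbp1 promoter at 27.8%, where the nearest was 45.8%, and the highest for the Ghr promoter at 32.1%, where the nearest was 29.2%. Heart library 3 was the highest for the Socs2 promoter at 1.5%, with the nearest at 1.2%. Heart library 5 was the lowest for the upstream region of Igfbp1 at 85.1%, with the nearest at 88.2%, and for the body of Igfals at 73.2%, with the nearest at 74.8%.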

How the results depend on the processing

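Counts of called member tiles were 52 between liver and brain, 53 between liver and heart and 13 between brain and heart, and ranged from 50 to 54, 52 to 55 and 13 to 16 when each library was left out. With a difference of at least 10 points they were 87, 100 and 55. With that threshold 3 promoters passed between liver and brain, 3 between liver and heart and 2 between brain and heart, and 4, 2 and 1 bodies. Promoters of 2000 bp on both sides gave 2 calls between liver and brain (Igfals and Igfbp1) and 2 between liver and heart. With every tile of each table there were 2 between liver and brain. The backgrounds given above hold for the settings used there. Counts of called tiles and regions under other settings have none beside them. Leaving out a library gave 1 promoter call between liver and brain, 1 to 2 between liver and heart and 0 between brain and heart, and 1, 1 and 0 body calls. The liver tiles with a high SD numbered 33, and 5 at 15 points. With at least 2 CpGs they numbered 20 (8.23% of such member tiles, beside 5.65% of all such liver tiles). They numbered 22 to 36 when a library was left out, the 22 without library 7. Over single regions, most of them not called, 1758 values under an alternative stayed on the same side of the threshold, 26 passed it, 4 no longer passed it and none reversed. The 4 were the upstream regions of Bcl6 (-24.6 points between liver and brain and 13.03 between brain and heart) and Stat5a (0.66 between liver and brain) with every tile of each table, and of Stat5a without brain library 1 (just under 25). With every tile of each table, each tissue is averaged over its own tiles, so differences in that setting can compare unlike tiles. No paired analysis was possible because the columns carry no mouse number. A coverage minimum could not be varied, since the tables hold no counts, and the depth limits what the spread of a tile can show.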
